A study of Homo sapiens with 6 samples.

Results

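The 10 genes described form the core of TGF-beta signaling, namely the ligands TGFB1, TGFB2 and TGFB3, the receptors TGFBR1 and TGFBR2, and the signal transducers SMAD2, SMAD3, SMAD4, SMAD6 and SMAD7. They were taken from the expression table by their symbols, from a list drawn up with earlier results of these data known, and all 10 symbols were found once among its 58735 genes. Of the 10, 9 had a mean level of at least 1 FPKM (fragments scaled to gene length and sequencing depth), the minimum for testing, which 13150 genes reached. TGFB3 stayed below it.

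The RNA came from PC9-BrM3 cells, which were selected for growth in the brain from PC9, a human lung adenocarcinoma line, by 3 rounds of injection and recovery in mice. Cells carrying an shRNA against the aldo-keto reductase AKR1B10 (vector 1, BrM3-shAKR1B10, 3 libraries) were compared with cells carrying a negative control shRNA (BrM3-shNC, 3 libraries), both kept in RPMI1640 with 10% fetal bovine serum. In the labels the control genotype reads WT, although these cells carry the control shRNA. They are called silenced and control libraries in what follows. The methods speak of independent experiments for quantitative data in general, but neither they nor the labels say whether these libraries came from separate cultures, so p-values measure only the spread between these libraries, which may be technical.

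TGF-beta ligands are secreted in a latent form and, once released, bind the type II receptor TGFBR2, which then activates the type I receptor TGFBR1. The activated receptor phosphorylates SMAD2 and SMAD3, which join SMAD4, enter the nucleus and regulate transcription. SMAD6 and SMAD7 inhibit the pathway, SMAD7 mainly at the TGF-beta receptors and SMAD6 mainly in the related BMP branch, and TGF-beta is known in carcinoma cells both for growth arrest and for epithelial-mesenchymal transition.

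AKR1B10 (ENSG00000198074, chromosome 7, 134527592 to 134541408) was first examined as the targeted gene. Its level was 108, 107 and 110.2 FPKM in the silenced libraries and 799, 775 and 772 FPKM in the controls, so that 13.9% of the control level was left. Between 16964504 and 18709028 reads per library were assigned to genes. A count of 3 for a gene 1000 bases long then amounts to 0.163 to 0.177 FPKM, which covers counting error only. The 6 epithelial markers summed to between 3167 and 3253 FPKM in the silenced libraries and between 2986 and 3348 FPKM in the controls. Of these, EPCAM (log2 ratio -0.24, limma adjusted p = 0.0097) and KRT7 (-0.19, adjusted p = 0.0207) were lower. CDH1 was higher (0.16, limma adjusted p = 0.0098), and KRT8, KRT18 and KRT19 did not pass an adjusted p of 0.05. At that level 23.1% of all genes were lower and 19.4% higher. The 5 lung lineage markers NKX2-1, NAPSA, SFTPB, SFTPC and FOXA2 each stayed below 1 FPKM in every library, so that the labelled lung origin is not visible in them. The 5 fibroblast markers summed to between 1.20 and 1.35 FPKM in the silenced libraries and between 2.03 and 2.05 FPKM in the controls. Nearly all of this was COL1A1, as COL1A2, DCN and LUM were listed at 0. All 4 leukocyte markers had a mean below 1 FPKM. The 3 endothelial markers summed to between 2.10 and 2.37 FPKM in the silenced libraries and between 1.52 and 1.79 FPKM in the controls. Most of this was CDH5, at a mean of 1.85 against 1.14 FPKM (log2 ratio 0.65, limma adjusted p = 0.0039), while PECAM1 was at 0.272 against 0.438 FPKM, below the minimum for testing. The 4 neural and glial markers summed to between 2.51 and 2.64 FPKM in the silenced libraries and between 3.35 and 3.50 FPKM in the controls, nearly all of it MBP. The part of these markers in the results was not tested.

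After AKR1B10 silencing a ligand, a receptor and an inhibitory SMAD were lower by modest amounts. TGFB1 fell to 73.7%, SMAD6 to 77.6% and TGFBR1 to 81.3% of the control level, and SMAD7, the other inhibitory SMAD, rose to 124%. In bulk RNA, fewer cells that express a gene and less RNA per cell cannot be told apart. The other 5 tested members lay between 81.9% and 95.2% of control and did not pass the test. Differences were tested with limma on log2(FPKM + 0.1) and are given as the log2 ratio of silenced over control. A gene was called where the adjusted p lay under 0.05 and the log2 ratio beyond 0.5 in either direction. No member was called (0 of 9 by limma, and 0 of 9 by limma's voom on reads), while 7.45% of all 13150 genes were called lower and 5.83% higher, 13.3% in all, and 13.9% by voom. By the adjusted p alone, 3 of 9 members were lower and 1 higher, against 23.1% and 19.4% of all genes, 42.5% in all. By voom 4 were lower and 1 higher, against 47.9% of all genes in either direction. At an unadjusted p under 0.05 there were 5 of 9 members, against 51.1% of all genes. The share of members at an adjusted p under 0.05, 4 of 9, was thus near that of the whole table. In 7 of the 9 members every BrM3-shAKR1B10 library was below every BrM3-shNC library, against 29.2% of all genes, and in 1 member it was above, against 25.5%. Groups did not overlap in 54.7% of all genes. The median log2 ratio of the 9 members was -0.12, beside -0.01 over all genes tested. These overlap counts were made on FPKM and not repeated under another scaling. FPKM summed over all genes was 297050 to 299668 in the silenced libraries and 300912 to 312882 in the controls. Scaled to an equal sum per library (TPM), TGFB2 had a log2 ratio of -0.08, TGFBR2 -0.05 and SMAD3 -0.03. TGFB1 had -0.40 and TGFBR1 -0.26, beside a median of 0.03 over all genes tested. The added 0.1 FPKM makes the ratios of low genes smaller than they are.

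**Figure D1:**
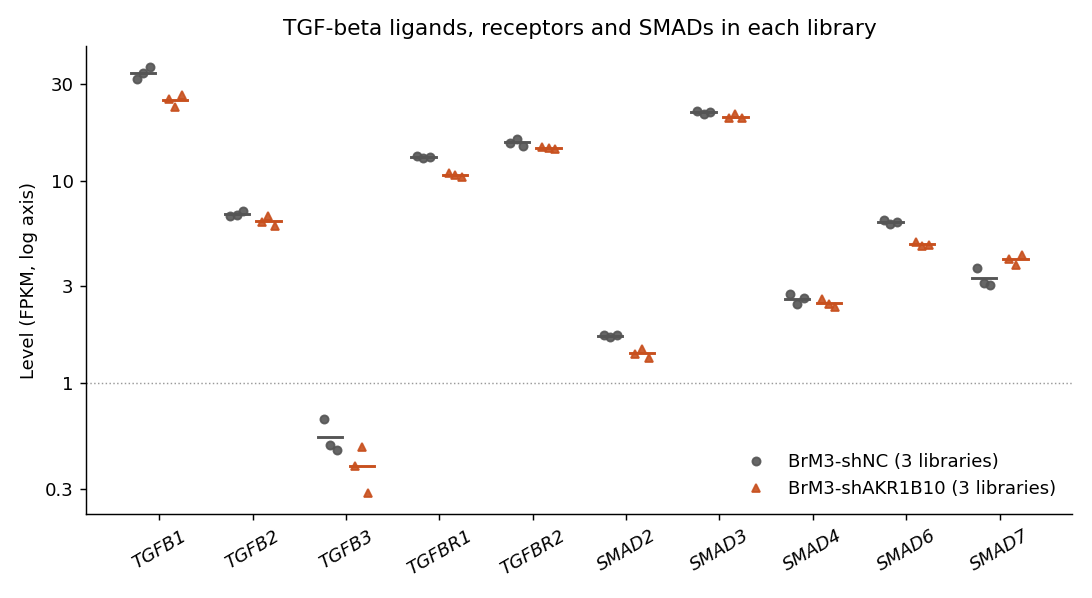
Level of each of the 10 members (FPKM, log axis) in the 3 BrM3-shNC libraries (grey circles) and the 3 BrM3-shAKR1B10 libraries (orange triangles), with group means as bars and a dotted line at 1 FPKM, the minimum for testing. TGFB1 was the highest and TGFB3 the lowest in both groups, and SMAD7 is the 1 tested member whose BrM3-shAKR1B10 libraries all lie above the control libraries.

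**Figure D2:**
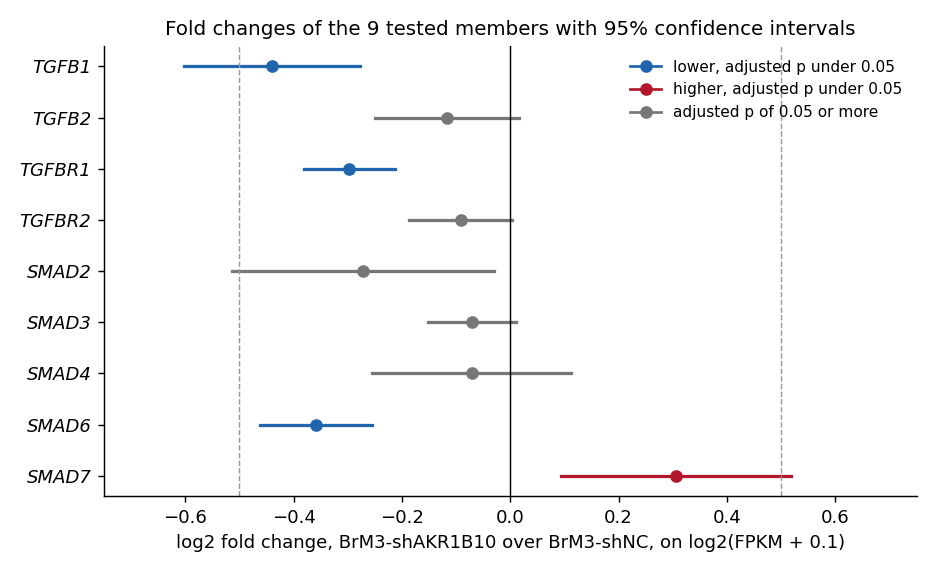
Log2 fold change (BrM3-shAKR1B10 over BrM3-shNC, on log2(FPKM + 0.1)) of the 9 tested members with limma's 95% confidence interval. Blue marks members lower and red a member higher at an adjusted p under 0.05, grey marks the rest, and dashed lines mark the threshold of 0.5, which no point reaches.

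The promoters of TGFB1, TGFBR1 and SMAD6 are shown as those of the 3 members that fell. The sequences are the 250 bases before the start that RefSeq lists first for each gene (GRCh38.p14), written along the strand of the gene. For TGFBR1 other listed starts lie further upstream. Capitals mark matches to GTCTAGAC, the palindromic SMAD-binding element, and to CAGAC, a shorter SMAD-binding box, on either strand.
TGFB1, chr19:41353923-41354172, minus strand: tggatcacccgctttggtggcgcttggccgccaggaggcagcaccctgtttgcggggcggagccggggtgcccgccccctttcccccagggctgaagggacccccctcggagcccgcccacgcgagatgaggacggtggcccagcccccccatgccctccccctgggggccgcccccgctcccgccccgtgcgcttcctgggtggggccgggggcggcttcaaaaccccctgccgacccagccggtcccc
TGFBR1, chr9:99104863-99105112, plus strand: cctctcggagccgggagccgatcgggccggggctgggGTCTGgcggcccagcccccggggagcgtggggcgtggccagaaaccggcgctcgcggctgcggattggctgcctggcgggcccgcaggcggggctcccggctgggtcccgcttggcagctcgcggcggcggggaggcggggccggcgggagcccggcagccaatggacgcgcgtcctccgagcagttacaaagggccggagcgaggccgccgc
SMAD6, chr15:66701986-66702235, plus strand: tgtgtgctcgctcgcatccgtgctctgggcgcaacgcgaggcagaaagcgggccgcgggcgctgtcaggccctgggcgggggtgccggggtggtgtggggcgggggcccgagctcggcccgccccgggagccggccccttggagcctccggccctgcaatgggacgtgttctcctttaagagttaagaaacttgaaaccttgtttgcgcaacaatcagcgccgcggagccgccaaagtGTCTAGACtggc
The SMAD6 window held GTCTAGAC from base 12 to base 5 before the start. This word was found in 1 of the 26 windows that RefSeq gives for the 10 members, and in 0.182% of the 35116 windows of all genes. CAGAC, which is not contained in it, was found in 10 of the 26 member windows, those of SMAD3, SMAD7, TGFB2, TGFB3 and TGFBR1, and in 38.0% of all windows, which is about the same share. TGFB1 and SMAD6 had no CAGAC in these 250 bases. The GC box GGGCGG was found in 11 of the 26 member windows and in 42.6% of all windows, again about the same share. It is in the printed windows of TGFB1 and SMAD6 and not in that of TGFBR1, though other listed windows of TGFBR1 hold it. The share of G and C was 76.8% in the TGFB1 window, 79.6% in the TGFBR1 window and 68.0% in the SMAD6 window, beside a median of 58.0% over all windows. A match is a description of the letters only, and no match says nothing about SMAD binding. Of the printed windows, 4 bases of TGFB1, 24 of TGFBR1 and 8 of SMAD6 lie in an annotated exon. The first window of SMAD7 lies wholly in an exon of GENCODE 29 and is not printed.

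Of the ligands, TGFB1 (ENSG00000105329, chromosome 19, 41301587 to 41353911, minus strand) was the most abundant. Its level was 25.3, 23.2 and 26.6 FPKM in the silenced libraries and 31.7, 33.9 and 36.3 FPKM in the controls. The groups did not overlap, and the silenced libraries were the lower ones. TGFB1 fell from 34.0 ± 2.30 to 25.0 ± 1.72 FPKM (SD, n = 3), by 0.44 on the log2 scale (SE 0.07, limma adjusted p = 0.0027), on 1355 to 2144 reads per library. The 3′ part of TGFB1 shares 215 exon bases, 6.64% of its total, with HNRNPUL1, an RNA-binding protein gene on the opposite strand.

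Whether the counting used the strand is not given in the sources used here, so reads of the shared bases cannot be told apart. HNRNPUL1 was at 42.9, 41.9 and 43.8 FPKM in the silenced libraries and 70.3, 72.0 and 72.6 FPKM in the controls, a log2 ratio of -0.74 (limma adjusted p = 2.1e-05), and was called lower. If the reads of HNRNPUL1 were spread evenly over its exons and all those on the shared bases had gone to TGFB1, they would make up between 10.9% and 14.7% of the TGFB1 reads. With them removed, the log2 ratio of TGFB1 was -0.40 (limma adjusted p = 0.0060). The neighbors CCDC97 and TMEM91, which lie over TGFB1 without sharing exon bases, had log2 ratios of -0.06 (adjusted p = 0.354) and -0.08 (adjusted p = 0.711) in the same limma fit.

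TGFB2 (ENSG00000092969, chromosome 1, 218346235 to 218444619), a second ligand that depends on the coreceptor betaglycan for efficient receptor binding, was at 6.26, 6.69 and 5.96 FPKM in the silenced libraries and 6.70, 6.74 and 7.08 FPKM in the controls. The highest silenced library lay just below the lowest control library. The log2 ratio was -0.12 (95% interval -0.25 to 0.02, limma adjusted p = 0.134). TGFB3 (ENSG00000119699, chromosome 14, 75958099 to 75982991) had 25 to 60 reads per library, the fewest of the 10 members. It was at 0.392, 0.485 and 0.287 FPKM in the silenced libraries and 0.665, 0.493 and 0.468 FPKM in the controls, with overlapping groups. With the minimum of 1 FPKM lifted, its log2 ratio was -0.40 (limma adjusted p = 0.436), and a difference was not detectable at this depth. The summed level of the 3 ligands was 31.7 ± 1.25 FPKM in the silenced libraries and 41.4 ± 2.40 FPKM in the controls (SD, n = 3). TGFB1 supplied 78.8% and 82.1% of these sums. IFT43, an intraflagellar transport gene over TGFB3 that shares no exon bases with it, had a log2 ratio of 0.06 (limma adjusted p = 0.281).

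The type I receptor TGFBR1 (ENSG00000106799, chromosome 9, 99104038 to 99154192), the kinase that phosphorylates SMAD2 and SMAD3, was at 10.9, 10.6 and 10.4 FPKM in the silenced libraries and 13.2, 12.9 and 13.1 FPKM in the controls. The libraries of each group lay close together and the groups were well apart. TGFBR1 fell from 13.1 ± 0.156 to 10.6 ± 0.232 FPKM (SD, n = 3), by 0.30 on the log2 scale (SE 0.04, limma adjusted p = 8.8e-04). The type II receptor TGFBR2 (ENSG00000163513, chromosome 3, 30606502 to 30694142), which binds the ligand first, was at 14.6, 14.5 and 14.3 FPKM in the silenced libraries and 15.4, 16.1 and 14.9 FPKM in the controls. The silenced libraries were again the lower ones, but the gap between the groups was narrower than the spread among the controls. Its log2 ratio was -0.09 (95% interval -0.19 to 0.00, limma adjusted p = 0.109).

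Among the receptor-regulated SMADs, SMAD3 was by far the higher on the deposited scale. SMAD3 (ENSG00000166949, chromosome 15, 67063763 to 67195195), which binds DNA directly, was at 20.3, 21.3 and 20.4 FPKM in the silenced libraries and 22.0, 21.4 and 21.8 FPKM in the controls. The groups touched without crossing, and the log2 ratio was -0.07 (95% interval -0.15 to 0.01, limma adjusted p = 0.143). SMAD2 (ENSG00000175387, chromosome 18, 47808957 to 47931146) was at 1.39, 1.47 and 1.34 FPKM in the silenced libraries and 1.74, 1.68 and 1.72 FPKM in the controls. The groups were apart, but the log2 ratio of -0.27 (95% interval -0.51 to -0.03) had an adjusted p of 0.0705 from limma with a mean-variance trend. On the reads, of which each library had 862 to 1158 for SMAD2, limma's voom gave a log2 ratio of -0.29 and an adjusted p of 2.6e-04. Its low FPKM rests on a gene length of 36366 bases, over which these reads are divided.

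SMAD4 (ENSG00000141646, chromosome 18, 51028394 to 51085045), the common partner of the receptor-regulated SMADs, was at 2.60, 2.45 and 2.37 FPKM in the silenced libraries and 2.74, 2.45 and 2.63 FPKM in the controls. The groups overlapped. The log2 ratio was -0.07 (95% interval -0.25 to 0.11, limma adjusted p = 0.492), the largest adjusted p among the 9 tested members. Antisense transcripts annotated over these genes were nearly absent. AC120349.1 over SMAD2 had at most 1 read per library, AC087482.1, which shares 182 exon bases with SMAD3, had at most 7, and AC012568.1 within SMAD3 had none. Apart from HNRNPUL1, the genes that share exon bases with a member had mean levels of at most 0.208 FPKM.

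The inhibitory SMADs moved in opposite directions. SMAD6 (ENSG00000137834, chromosome 15, 66702228 to 66782848), whose promoter holds the palindromic word shown above, was at 4.98, 4.76 and 4.83 FPKM in the silenced libraries and 6.37, 6.13 and 6.28 FPKM in the controls. The groups were far apart compared with the spread within them. SMAD6 fell from 6.26 ± 0.124 to 4.86 ± 0.110 FPKM (SD, n = 3), by 0.36 on the log2 scale (SE 0.04, limma adjusted p = 9.5e-04). SMAD7 (ENSG00000101665, chromosome 18, 48919853 to 48952052), which binds the active type I receptor and brings ubiquitin ligases to it, was at 4.08, 3.84 and 4.31 FPKM in the silenced libraries and 3.69, 3.14 and 3.04 FPKM in the controls. The silenced libraries were the higher ones, and control library 1 came closest to them. SMAD7 rose from 3.29 ± 0.353 to 4.08 ± 0.236 FPKM (SD, n = 3), by 0.31 on the log2 scale (SE 0.09, limma adjusted p = 0.0317), on 267 to 385 reads per library.

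The result for SMAD7 rested on few libraries. Its adjusted p from limma was 0.0814 without BrM3-shAKR1B10 library 1, 0.0962 without library 3 of that group, 0.0906 without BrM3-shNC library 2 and 0.0902 without BrM3-shNC library 3. It was 0.0762 with the minimum level lifted and 0.0090 by voom on the reads. Its log2 ratio stayed between 0.25 and 0.39 under all alternatives. TGFB1, TGFBR1 and SMAD6 kept an adjusted p under 0.05 under each alternative, with the highest values at 0.0113, 0.0070 and 0.0070. No alternative gave a member an absolute log2 ratio above 0.49.

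Ratios within a library restate these values free of the scaling between libraries. SMAD6 over SMAD7 was 1.22, 1.24 and 1.12 in the silenced libraries and 1.73, 1.95 and 2.07 in the controls. SMAD6 thus stood closer to SMAD7 in each silenced library than in any control library, on a scale per gene length. TGFBR2 over TGFBR1 was 1.34, 1.37 and 1.37 in BrM3-shAKR1B10 and 1.16, 1.24 and 1.13 in BrM3-shNC. SMAD3 over SMAD2 was 14.6, 14.5 and 15.3 in BrM3-shAKR1B10 and 12.7, 12.7 and 12.7 in BrM3-shNC. These and 3 further ratios or shares, with the summed level of the ligands, make 7 quantities, which all had groups that did not overlap, with p = 0.10 in exact two-sided permutation tests, also after Benjamini-Hochberg adjustment. This is the smallest p that 3 against 3 libraries can give, so none could pass 0.05.

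**Figure D3:**
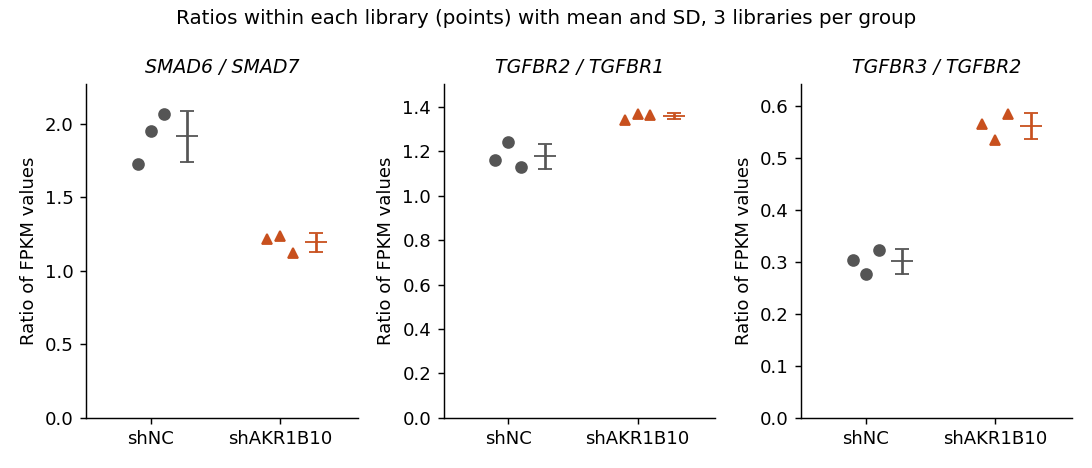
Ratios of FPKM values within each library for SMAD6 over SMAD7, TGFBR2 over TGFBR1 and TGFBR3 over TGFBR2 (points, axes from 0), with the mean and SD of 3 libraries beside them. SMAD6 over SMAD7 had a mean of 1.19 in the silenced libraries against 1.91 in the controls, and the groups do not overlap in any of the 3 panels.

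Ranked by FPKM, which divides reads by the joined length of all exons, the order was TGFB1, SMAD3, TGFBR2, TGFBR1, TGFB2, SMAD6, SMAD7, SMAD4, SMAD2 and TGFB3 in both groups. No neighbors in this order overlapped between their libraries in either group. The order between genes depends on the length used. Divided by the length of the principal transcript, SMAD6 moved from rank 6 to rank 4 in the control libraries, since that transcript covers 44.8% of its exon bases. Divided by the shortest coding transcript, SMAD3 came first and SMAD2 moved from rank 9 to rank 4. The shortest transcripts are an outer bound, as no file states which transcripts these cells use. The percent of control of a gene does not depend on this choice.

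**Figure D4:**
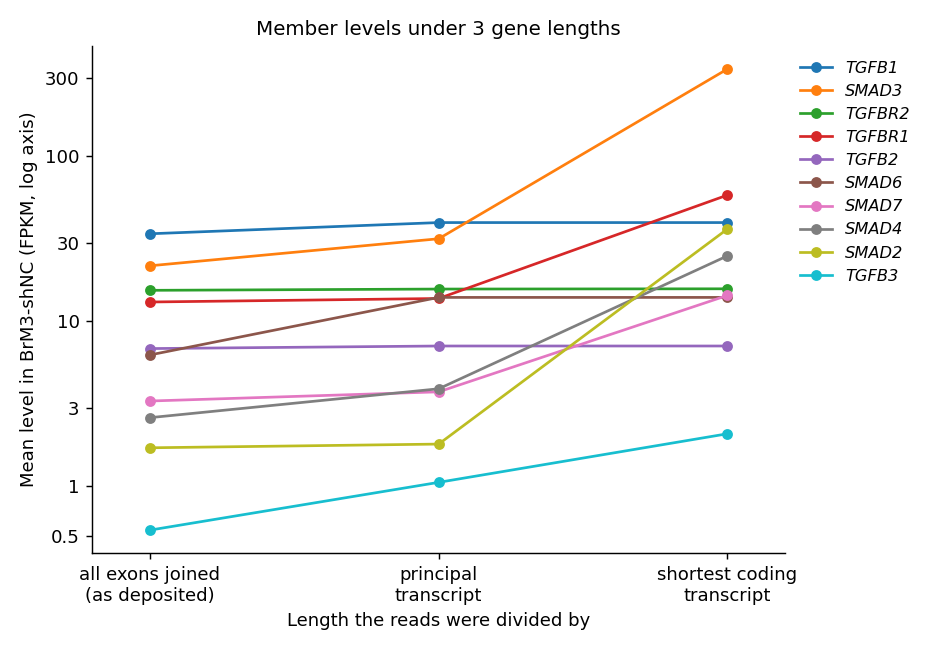
Mean level of each member in the 3 BrM3-shNC libraries (FPKM, log axis) when its reads are divided by all exons joined, by the principal transcript or by the shortest coding transcript of GENCODE 29. TGFB1 goes from 34.0 to 39.7 FPKM, whereas SMAD2, with the longest gene model, goes from 1.71 to 36.3 FPKM.

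Around the 10 members, 142 further genes of the pathway were listed by role, of which 79 were tested. Of these 79, 12 were called lower and 4 higher under the full rule, beside 7.45% and 5.83% of all genes. By the adjusted p alone 24 were lower and 21 higher, beside 23.1% and 19.4% of all genes. Their median log2 ratio was -0.05.

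Of 16 genes of ligand latency and activation, 10 were tested and none was called (8 had an unadjusted p under 0.05 in limma, beside 51.1% of all genes, and by the adjusted p alone 4 were lower and 2 higher, beside 23.1% and 19.4%). Among the 30 other ligands of the superfamily 7 were tested. INHBA, which encodes the activin A subunit, was at 2.09, 2.33 and 2.14 FPKM in the silenced libraries and 3.83, 3.42 and 3.52 FPKM in the controls, and fell by 0.69 on the log2 scale (limma adjusted p = 6.6e-04). BMP4, a ligand of the BMP branch, was at 3.80, 3.20 and 3.53 FPKM against 1.49, 2.42 and 2.12 FPKM, and rose by 0.80 on the log2 scale (limma adjusted p = 0.0109). INHBA and BMP4 thus went in opposite directions, and the groups overlapped for neither gene. INHBB, the activin B subunit, was chosen after its values were seen because it was the highest of all ligands per gene length. It was at 73.6, 74.4 and 79.8 FPKM in the silenced libraries and 60.0, 61.0 and 61.7 FPKM in the controls, and was higher by the adjusted p alone (log2 ratio 0.32, limma adjusted p = 0.0010).

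Of 15 other receptors and coreceptors 9 were tested, and TGFBR3 was the single one called, beside 13.3% of all genes. TGFBR3 encodes betaglycan, the coreceptor that presents TGF-beta, in particular TGFB2, to the signaling receptors. It was at 8.29, 7.78 and 8.34 FPKM in the silenced libraries and 4.68, 4.44 and 4.81 FPKM in the controls. TGFBR3 rose by 0.80 on the log2 scale (95% interval 0.67 to 0.92, limma adjusted p = 7.9e-05), whereas TGFBR1 fell and TGFBR2 did not pass the test. Per gene length, TGFBR3 was 0.563 ± 0.0252 of TGFBR2 in the silenced libraries and 0.301 ± 0.0238 of it in the controls (SD, n = 3).

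Of the other type I and type II receptors tested, none was called, beside 13.3% of all genes, and by the adjusted p alone 1 was lower and 1 higher, beside 23.1% and 19.4%. ACVR1B, the activin type I receptor that also uses SMAD2 and SMAD3, fell by 0.29 on the log2 scale (limma adjusted p = 0.0031), beside 0.30 for TGFBR1. BMPR1B, a BMP type I receptor, had a log2 ratio of 0.32 (limma adjusted p = 0.0418). Its adjusted p lay between 0.0731 and 0.110 when any library but BrM3-shNC 1 was left out. ACVR1 (-0.21, adjusted p = 0.136), BMPR1A (-0.13, adjusted p = 0.515), BMPR2 (0.01, adjusted p = 0.878) and ACVR2A (0.07, adjusted p = 0.613) did not pass limma's test on the log2 scale. Of the SMADs of the BMP branch, SMAD5 fell by 0.32 on the log2 scale (limma adjusted p = 0.0025), SMAD1 had -0.01 (adjusted p = 0.934), and SMAD9 was below 1 FPKM.

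Of 29 intracellular regulators 27 were tested, 2 were called lower and none higher, beside 7.45% and 5.83% of all genes. By the adjusted p alone 4 were lower and 7 higher, beside 23.1% and 19.4% of all genes. At an unadjusted p under 0.05 in limma there were 14, beside 51.1% of all genes. DAB2, an endocytic adaptor that binds SMADs, was below the minimum for testing and was chosen after its values were seen. It was at 0.924, 0.782 and 0.716 FPKM in the silenced libraries and 0.120, 0.161 and 0.0852 FPKM in the controls. With the minimum lifted it was higher, with a log2 ratio of 2.04 (limma adjusted p = 0.0039). UCHL5, a deubiquitinase that acts on the type I receptor, fell by 0.73 on the log2 scale (limma adjusted p = 5.7e-05). TGIF2, a corepressor of SMAD complexes, fell by 0.64 on the log2 scale (limma adjusted p = 0.0031). Of 14 extracellular antagonists 4 were tested, and NBL1 (-0.73, adjusted p = 0.0013) and TWSG1 (-0.63, adjusted p = 3.2e-04), which bind BMP ligands, were called lower in the same fit. These are 2 of 4, beside 7.45% of all genes called lower. By the adjusted p alone 2 antagonists were lower and 1 higher, beside 23.1% and 19.4% of all genes.

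Target genes moved in both directions. Of 33 genes listed as TGF-beta targets 24 were tested, and the median log2 ratio was -0.16. Of the 24, 5 were called lower and 2 higher, beside 7.45% and 5.83% of all genes. By the adjusted p alone 10 were lower and 7 higher, beside 23.1% and 19.4% of all genes. TGFBI, an extracellular matrix protein gene named for its induction by TGF-beta, was at 3.11, 2.91 and 2.89 FPKM in the silenced libraries and 5.14, 5.27 and 5.30 FPKM in the controls, and fell by 0.80 on the log2 scale (limma adjusted p = 8.8e-05). COL1A1 (-0.67, adjusted p = 0.0032), IL11 (-0.70, adjusted p = 0.0359) and SNAI1 (-0.58, adjusted p = 0.0280) were called lower by limma. FN1, chosen after its values were seen, was the fifth called lower (-0.57, limma adjusted p = 3.5e-05). COL1A1 is also 1 of the fibroblast markers, whose part in the result was not tested, and its log2 ratio was -0.43 with a pseudocount of 1. IL11 and SNAI1 rest on 33 to 78 and 40 to 76 reads per library. IL11, with means of 0.778 FPKM in the silenced libraries and 1.33 FPKM in the controls, reached the minimum for testing only through the controls, and its adjusted p was 0.0621 with the minimum lifted. The adjusted p of IL11 was 0.0916 and 0.0861 without BrM3-shAKR1B10 library 2 or 3, and 0.0787 and 0.117 without BrM3-shNC library 1 or 3. That of SNAI1 was 0.0806 and 0.0814 without BrM3-shAKR1B10 library 2 or 3, and 0.0782 and 0.0868 without BrM3-shNC library 1 or 2.

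Against these, CDH2, which encodes N-cadherin, was at 1.62, 1.76 and 1.88 FPKM in the silenced libraries and 0.672, 0.753 and 0.664 FPKM in the controls, and rose by 1.22 on the log2 scale (limma adjusted p = 0.0010). CDH2 reached the minimum for testing only through the silenced libraries, and its adjusted p was 0.0018 with the minimum lifted. CDKN1A, which encodes the cell cycle inhibitor p21 and answers to p53 as well, rose by 0.68 on the log2 scale (limma adjusted p = 1.0e-04). SKIL, a corepressor that TGF-beta induces, was higher by the adjusted p alone (0.33, limma adjusted p = 0.0010). PMEPA1, which restrains SMAD2 and SMAD3, was lower by the same measure (-0.39, limma adjusted p = 1.2e-04). TGFBI and PMEPA1 were thus lower, and SKIL higher, in the same libraries. Of 9 BMP targets 3 were tested, and ID1 (-0.68, adjusted p = 1.2e-04) and ID3 (-0.52, adjusted p = 0.0060), inhibitors of basic helix-loop-helix factors, were called lower by limma. These are 2 of 3, beside 7.45% of all genes called lower. The other tested target, BAMBI, had a log2 ratio of 0.02 (limma adjusted p = 0.846). The log2 ratio of ID3 was -0.49, -0.48, -0.49 and -0.45, short of the threshold, without BrM3-shAKR1B10 library 2 or 3 or BrM3-shNC library 2 or 3, in that order.

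**Figure D5:**
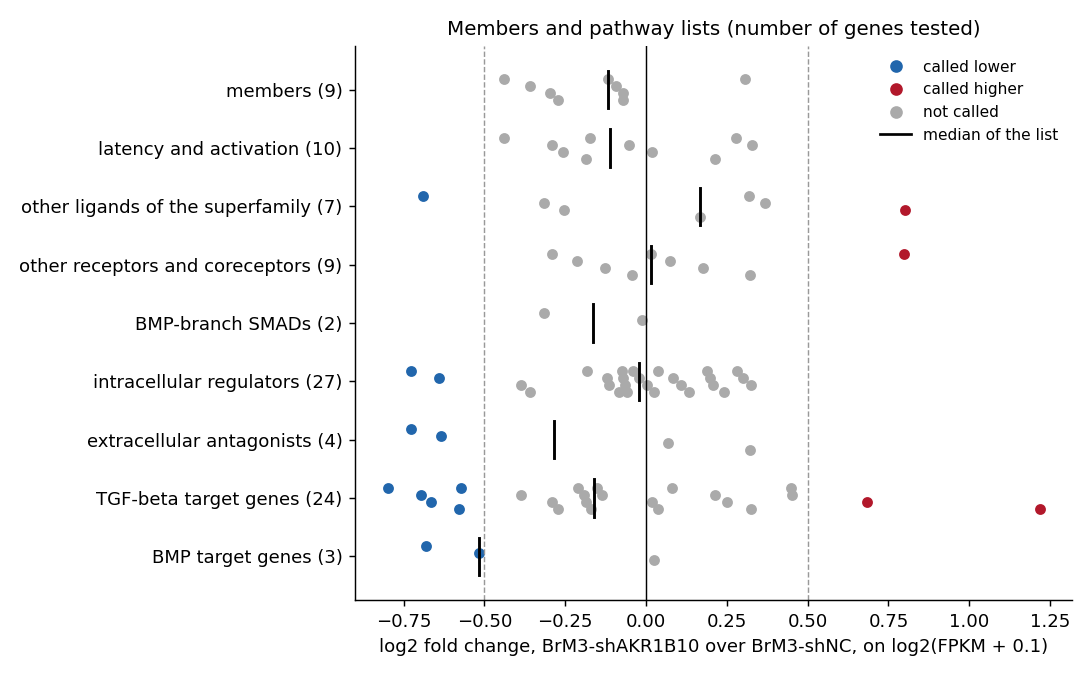
Log2 fold change (BrM3-shAKR1B10 over BrM3-shNC, on log2(FPKM + 0.1)) of each tested gene in the 10 members and in 8 pathway lists, with the number tested in parentheses and black bars at the list medians. Genes called lower are blue and genes called higher red, dashed lines mark 0.5, no member is called, and CDH2 lies farthest to the right at 1.22.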

How the data were processed

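The libraries were made from poly-T purified mRNA. The authors aligned reads with HISAT2 2.0.5, counted them per gene with featureCounts 1.5.0-p3 and deposited FPKM values per library for 58735 genes, and their own differential expression used DESeq2. Replicates were not pooled. The genome build and strand setting are not given in the sources used here, though each of the 58735 genes has the identifier and position of GENCODE 29 (GRCh38).

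The test was limma 3.58.1 (R 4.3.3) on log2(FPKM + 0.1), with a pseudocount of 0.1 (mean-variance trend, all 6 libraries, no covariates, Benjamini-Hochberg over the 13150 genes with a mean of at least 1 FPKM). Reads were recovered as whole numbers, within 0.02 reads, for 100% of values (voom alternative). The script was tested on simulated data. Exact permutation tests used scipy 1.17.1 in Python 3.11.15.

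Members and lists were chosen with earlier results of these data known. Named are AKR1B10, all members, genes over a member that reach 1 FPKM or are antisense, called genes of each list (at most 6, by size of change), SMADs and tested receptors of the superfamily, and TGFBI, SKIL, PMEPA1 and ID1. A further gene under this rule is not reported here. FN1, INHBB, DAB2, MMP14 and BAMBI fall outside this rule. Alternatives covered pseudocount, filter, scaling, fold change threshold, voom, replicate block and each library left out. Chosen after seeing the data were eBayes without a trend, other gene lengths and TGFB1 less an even share of HNRNPUL1 reads. Metabolite, protein and ChIP data of the study were not analysed here.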

Additional observations from a re-analysis of the deposited data

How the results depend on the processing

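No member was called under any alternative that kept the fold change threshold, and without it 3 were lower and 1 higher. By the adjusted p alone, the count of higher members was 0 with no filter, with a mean of at least 5 FPKM and with the replicate block, and 0 to 1 with a library left out. Pathway genes called lower numbered 12, but 5 with a mean of at least 5 FPKM and 24 with no fold change threshold, and those called higher 4, but 2 and 21. Over all genes, 980 were called lower, but 532 and 3044 under these settings, and 766 higher, but 290 and 2548, and 497 with a pseudocount of 1. Fewer genes were tested at 5 FPKM, and the cause of the pseudocount's effect was not tested. With the replicate block the adjusted p of SMAD7 was 0.0540, and the pathway counts were 11 lower and 4 higher. The numbers do not pair the libraries (correlations of same-numbered deviations -0.02, 0.00 and 0.00). The log2 ratio of SMAD1 (-0.01) was 0.023 under TPM scaling and ran from -0.062 to 0.030 with a library left out, and that of BMPR2 (0.01) ran from -0.021 to 0.067. Of 523 values for 36 genes under alternatives, 489 kept their direction and side of an adjusted p of 0.05, 25 rose above it (SMAD7, BMPR1B, IL11 and SNAI1), 3 came below it (SMAD2, under quantile scaling, voom and eBayes without a trend) and 6 reversed. Depth limits TGFB3 most, at 25 to 60 reads.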
